A study of Mus musculus with 2 samples.

Results

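The MHC class II presentation genes are the 10 listed members of this antigen presentation pathway, out of 17751 genes in the raw transcript tables: H2-Aa, H2-Ab1, H2-Eb1, Cd74, H2-DMa, H2-DMb1, H2-DMb2, H2-Oa, H2-Ob and Ciita. They were chosen by name and not by level, all 10 were detected in both libraries, and together they made up 4.83% of WT and 4.70% of Batf3-/- UMIs (unique molecular identifiers, 1 per captured transcript). CITE-seq was run on dendritic cells from the spleens of 8-week-old female mice, either C57BL/6 (WT) or Batf3-/-, which lack the transcription factor Batf3 throughout the body. In both groups the pooled spleens of several mice were depleted of T and B cells and live MHCII+ CD11c+ cells were sorted, so every cell had been selected on class II protein before its transcripts were read. Each genotype gave 1 library, so the values are descriptions without a test, and genotype and library cannot be told apart.

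MHC class II molecules present peptides from endosomes to CD4 T cells. H2-Aa and H2-Ab1 encode the alpha and beta chains of I-A, and H2-Eb1 the beta chain of I-E, whose alpha chain gene carries a deletion in C57BL/6 mice. Cd74 encodes the invariant chain, which fills the peptide groove and guides new dimers to endosomes. H2-DM, made of H2-DMa with the product of H2-DMb1 or H2-DMb2, removes the invariant chain remnant and edits peptides. H2-DO, made of H2-Oa and H2-Ob, binds H2-DM and inhibits it. Ciita is the class II transactivator, a coactivator that binds no DNA itself and is recruited by the RFX, CREB and NF-Y complexes on the X and Y boxes of class II promoters. Maturing dendritic cells are known to shut off Ciita transcription while class II protein stays on the surface.

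The 8 members on chromosome 17 lay within 224 kb, from 34092340 to 34316674 (GRCm38, GENCODE M21), and Ciita lay on chromosome 16, chr16:10480059-10528418, on the plus strand. Of the 10 members, 7 had a promoter in the RefSeq table of the GRCm38.p6 assembly, which runs from 250 bases before to 50 bases after each start, and H2-Ab1, Cd74 and Ciita had no entry. The Y box letters TGATTGG stood on the gene's strand in 6 of the 7, and the letters AACNNATGA, taken here for the X box, preceded them in 4. These letters were chosen with the promoters in view. Among all 32851 promoters, 7.23% held TGATTGG on either strand and 3.64% on the gene's strand, and 2.49% held AACNNATGA on either strand. The pair in this order, 15 to 35 bases apart, stood in 7 promoters (0.0213%), namely H2-Eb1, H2-DMb1, H2-DMb2, H2-Ob, BC051142, Gm34733 and Bscl2. The 6 stretches around the Y box are shown because Ciita is known to act through boxes of this kind. They read 5′ to 3′ on the gene's strand, with both motifs in capitals. H2-Aa (minus strand) covers chr17:34287857-34287923, H2-Eb1 chr17:34305756-34305822, H2-DMb1 chr17:34153078-34153144, H2-DMb2 chr17:34145107-34145173, H2-Oa chr17:34092284-34092350 and H2-Ob chr17:34238796-34238862, the last 5 on the plus strand.
H2-Aa: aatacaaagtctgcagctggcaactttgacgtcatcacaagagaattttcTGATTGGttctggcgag
H2-Eb1: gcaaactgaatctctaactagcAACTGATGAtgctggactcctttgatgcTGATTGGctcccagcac
H2-DMb1: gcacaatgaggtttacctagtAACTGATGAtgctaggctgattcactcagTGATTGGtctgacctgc
H2-DMb2: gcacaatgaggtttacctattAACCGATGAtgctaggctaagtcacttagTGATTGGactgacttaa
H2-Oa: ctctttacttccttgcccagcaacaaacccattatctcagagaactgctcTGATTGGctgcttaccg
H2-Ob: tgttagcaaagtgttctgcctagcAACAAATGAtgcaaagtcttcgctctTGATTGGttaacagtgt
The Y box began 45 to 92 bases before the start, and 17 to 20 bases separated it from the X box letters in the 4 promoters that hold both. The stretches of H2-DMb1 and H2-DMb2 are alike over most of their length. Both RefSeq starts of H2-DMa lacked both motifs in this window. A match of letters is a description and not a site of binding.

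From WT mice came 12224 cells with 122530055 UMIs in all, and from Batf3-/- mice 12119 cells with 114517073. The median cell had 8374.5 UMIs in WT and 8516 in Batf3-/- mice. Batf3, the deleted gene, was read at 206 CPM (counts per 1000000 UMIs) in WT and 2.49 CPM in Batf3-/- cells, as the labels give them. The libraries shared 56 barcode sequences. Scrublet marked 4.43% of WT and 2.01% of Batf3-/- cells as likely doublets; they were kept, and main values without them stand beside the results. Levels are summed UMIs of a cluster over all its UMIs, as CPM, with exact Poisson 95% intervals, and differences are log2 ratios with exact conditional intervals. Intervals of shares of cells are Clopper-Pearson intervals. Each kind stands for counting error alone and leaves out the spread between mice, pools or libraries, and is too narrow as a guide to other libraries. The intervals of levels and of log2 ratios also leave out the spread between the cells of a cluster. The 20 clusters are those deposited (C0 to C19). They were built from the same transcripts, so a difference between clusters is a description. The markers went with the names: the summed level of 5 cDC1 markers was 2299 CPM in C4 and 58.7 in C0, that of 5 maturation markers was 5490 in C12 and 3604 in C1 against 366 in C4 and 260 in C0, and that of 5 pDC markers was 11308 in C14. B cells also express class II. Of 6 B cell genes summing to 18.1 to 128 CPM in WT clusters with 50 cells or more, the most abundant was Cd79b or Ms4a1 in each cluster, and Cd79a was under 1 CPM except in C13, where it was 45.2 CPM. In Batf3-/- cells Cd79a was 53.8 CPM in C13, 1.65 in C3 and 1.09 in C1. Ms4a1 was 188 CPM in C12 and 74.4 in C4 there, on 31 cells each.

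H2-Aa, H2-Ab1, H2-Eb1 and Cd74, called the core genes, took 4.59% of all UMIs in WT and 4.47% in Batf3-/- cells. In WT, Cd74 alone stood at 18880 CPM (95% interval 18856 to 18905), H2-Ab1 at 9778, H2-Eb1 at 9018 and H2-Aa at 8272. In Batf3-/- cells the same 4 genes stood at 18561, 8804, 8995 and 8382 CPM. A UMI marks 1 molecule at its 3′ end, so a level does not scale with transcript length, although the yield of different transcripts may differ. The other members were expressed at a small part of these levels, from 711 CPM for H2-DMa and 435 for Ciita down to 158 for H2-Ob in WT.

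Among dendritic cell clusters, the core share was highest in the cDC2b of C2, a conventional dendritic cell subset with monocyte-like genes, at 6.73% of UMIs in WT and 6.35% in Batf3-/- cells. C18, a small WT cDC1 cluster rich in ribosomal protein transcripts, followed with 5.68%, and the Sox4+ cells of C3 with 5.60%. The resting cDC1 of C4 had 5.15% and the cDC2a of C0 4.59%. Cycling clusters were lower, with 4.01% in the cDC1 of C6 and 3.53% in the cDC2 of C7. The mature cDC1 of C12 (2.76%) and the pDC of C14 (2.75%) had nearly the same share and were below the remaining dendritic cell clusters except the low-UMI C9 and C17. Monocytes (C15) had 2.17% over the cluster but a median of 0.618% per cell, with 79 of 145 cells (54.5%) under 1%, and the stem-like cells of C19, 29 in WT, had 0.114%.

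**Figure D1:**
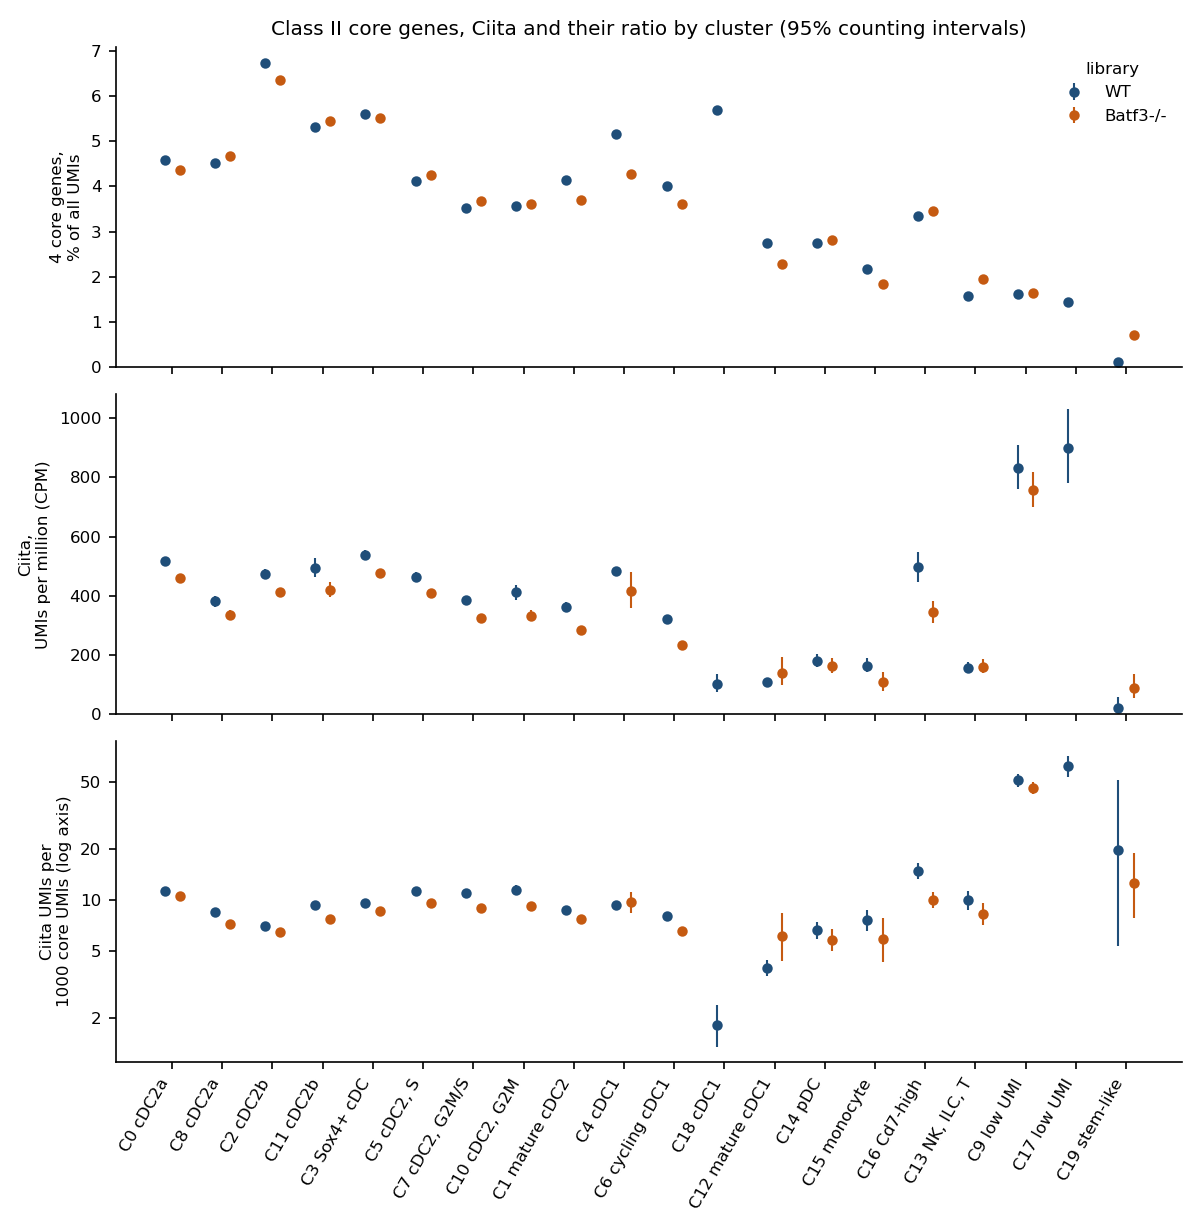
Core genes as a percent of all UMIs (top), Ciita in CPM (middle) and Ciita UMIs per 1000 core UMIs on a log axis (bottom), for each cluster with 25 cells or more; blue is the WT and orange the Batf3-/- library, and bars are 95% counting intervals. C2 stands highest in the top panel with 6.73% in WT, C9 and C17 stand highest in the lower panels, and C18 and C12 of WT stand lowest among dendritic cell clusters in the bottom one.

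The 4 core genes kept close to each other across clusters. Over the 19 clusters with at least 50 WT cells, Pearson's r of the log2 level with the core level was 0.98 for H2-Aa, 0.98 for H2-Eb1, 0.99 for Cd74 and 0.92 for H2-Ab1, each of them a part of that sum. For genes outside the sum, r was 0.88 for H2-DMa, 0.74 for H2-Oa, 0.63 for H2-DMb1, 0.45 for H2-DMb2 and 0.30 for H2-Ob. These clusters share 1 library, and their depth and RNA content differ. The 5 genes outside the members that tracked the core level most closely, among 2707 ranked, were Asnsd1 (0.82), Gm2a (0.76), Rps12 (0.76), Mrpl52 (0.76) and Rpl26 (0.76). In the Batf3-/- library, over 15 clusters, the same r ran from 0.69 for Rps12 to 0.77 for Gm2a.

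Over all 19 WT clusters, Ciita did not follow its targets in this way. Its level had an r of 0.03 with the core level over these clusters and of 0.42 over the 15 Batf3-/- clusters. The 19 include the low-UMI C9 and C17, which had the highest Ciita levels, up to 899 CPM, at core shares of 1.63% and 1.45%. How far r rests on C9 and C17 was not tested. Of the WT clusters other than C9 and C17, C3 had 538 CPM of Ciita, C0 516, C4 484 and C2 476, and not all clusters in this range are listed. The cluster with the highest core share, C2, was thus not the one with the highest Ciita. Among clusters with at least 50 cells, the low end held C18 with 103 CPM, C12 with 110, C13, which holds NK cells, innate lymphoid cells and T cells, with 158 (84.0 without the cells that Scrublet marked), C15 with 165 and C14 with 181. The intervals of C18 (76.5 to 135) and C12 (97.9 to 122) overlapped, and so did those of C0 and C3.

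Set against its targets, Ciita stood between 6.60 and 14.9 UMIs per 1000 core UMIs in 15 of the 19 WT clusters. In C0 it was 11.3 (95% interval 11.1 to 11.5), in C4 9.38 (9.24 to 9.53), in C1 8.73 (8.33 to 9.14), in C2 7.06 (6.84 to 7.29) and in C14 6.60 (5.85 to 7.42). The other 4 clusters lay outside this range on either side. C12 had 3.97 (3.55 to 4.43) and C18 1.81 (1.35 to 2.38), while C9 had 51.2 (46.7 to 56.1) and C17 62.1 (53.8 to 71.4). C19 had 4 WT Ciita UMIs in all, too few to place it.

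C9 and C17 were also apart in quality. Their cells had a median of 1467 and 2348 UMIs, against 6648 in C0, and a median mitochondrial share of 14.9% and 15.05%, against 4.70%. Malat1, a transcript retained in the nucleus, was read at 154210 CPM in C9 and 296407 CPM in C17, against 29654 in C0. C18 had only 4257 CPM of Malat1 and the highest median ribosomal protein share, 34.5%. Across the 19 WT clusters the log2 of Ciita per 1000 core UMIs had an r of 0.70 with the log2 Malat1 level. C12 departs from that order, with 128442 CPM of Malat1 and a low ratio. What part RNA content or the nuclear share of a cell's RNA plays in the ratio was not tested.

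The genes whose levels across WT clusters were most like Ciita were Itgax (r 0.89), which encodes the integrin CD11c used in the sort, Plpbp (0.86), Zfp263 (0.85), Ipo7 (0.85) and Lrrk2 (0.85). In the Batf3-/- library Itgax again had the highest r of these 5, 0.80. In WT no other member was near these values: among the other members, r with Ciita in WT was highest for H2-DMb2, 0.43, and H2-Ob, 0.42. In the Batf3-/- clusters it was 0.73 for H2-Ob, above the r of Lrrk2 (0.68), Plpbp (0.68), Zfp263 (0.59) and Ipo7 (0.56) there. The WT clusters ranked here include the low-UMI C9 and C17, where Ciita was highest. Itgax too was higher in C9 of WT (329 CPM) than in C0 (286 CPM). The part of C9 and C17 in the ranking was not tested.

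Mature and resting cDC1 of the WT library differed across nearly the whole pathway. C12, 394 cells marked by Ccr7, Fscn1 and Il4i1, was set against C4, 2202 cells. Here 9 of the 10 members were lower in C12 by at least 0.5 on the log2 scale and none was higher. The background for this pair was wide: of the 2393 genes that reached 50 CPM on average with 20 or more UMIs, 36.4% were lower and 29.7% higher by as much. The median of the members was -1.33 and that of all 2393 genes -0.16. RNA measures moved with the pair: Malat1 was 128442 CPM in C12 and 40252 in C4, and the median cell had 6887.5 and 15398.5 UMIs. Across the 19 WT clusters, r with the log2 Malat1 level was -0.83 for H2-DMa, -0.66 for H2-Aa, -0.64 for H2-DMb1 and 0.39 for Ciita. The part of these measures in the differences was not tested.

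The core genes were lower than in C4 by moderate amounts. Their summed level was 27569 CPM in C12 and 51531 in C4, a log2 ratio of -0.90 (95% interval -0.91 to -0.89). H2-Aa was 4882 CPM in C12 and 8960 in C4 (-0.88), H2-Eb1 5400 and 9887 (-0.87), and Cd74 13750 and 21339 (-0.63). H2-Ab1 was further apart than the alpha chain that pairs with it, with 3537 CPM in C12 and 11346 in C4 (-1.68). Ciita and H2-DM differed more than the core genes. Ciita was 110 CPM in C12 and 484 in C4, a log2 ratio of -2.14 (-2.31 to -1.98). H2-DMa was 159 and 820 CPM (-2.37) and H2-DMb1 64.0 and 578 CPM (-3.17). The second DM beta gene was the exception: H2-DMb2, low in both, was 70.8 CPM in C12 and 82.2 in C4 (-0.22, interval -0.42 to -0.01). The H2-DO genes lay between, with H2-Oa at -1.28 and H2-Ob at -1.37. Ciita per 1000 core UMIs was thus lower in C12 than in C4 by -1.24 on the log2 scale (-1.40 to -1.08).

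Scrublet marked 10.9% of C4 and 6.85% of C12 cells in WT. Without them, Ciita was 81.0 CPM in 367 C12 cells and 477 CPM in 1963 C4 cells (-2.56), H2-DMa -2.75, H2-DMb1 -3.54 and H2-DMb2 -0.49. The 31 C12 cells of the Batf3-/- library had a core share of 2.29%, Ciita at 141 CPM (100 to 193) and H2-DMa at 177 CPM. The interval of Ciita holds the WT value, but the 5 cDC1 markers summed to 21.7 CPM in these cells and to 192 in the WT C12. The ratio of Ciita to 1000 core UMIs was higher in the Batf3-/- C12, 6.15 (4.37 to 8.41), than in the WT one, 3.97 (3.55 to 4.43), but these intervals overlap. In C4, which has 31 Batf3-/- cells as well, it was 9.72 (8.40 to 11.2) in Batf3-/- cells, an interval that holds the WT value of 9.38.

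**Figure D2:**
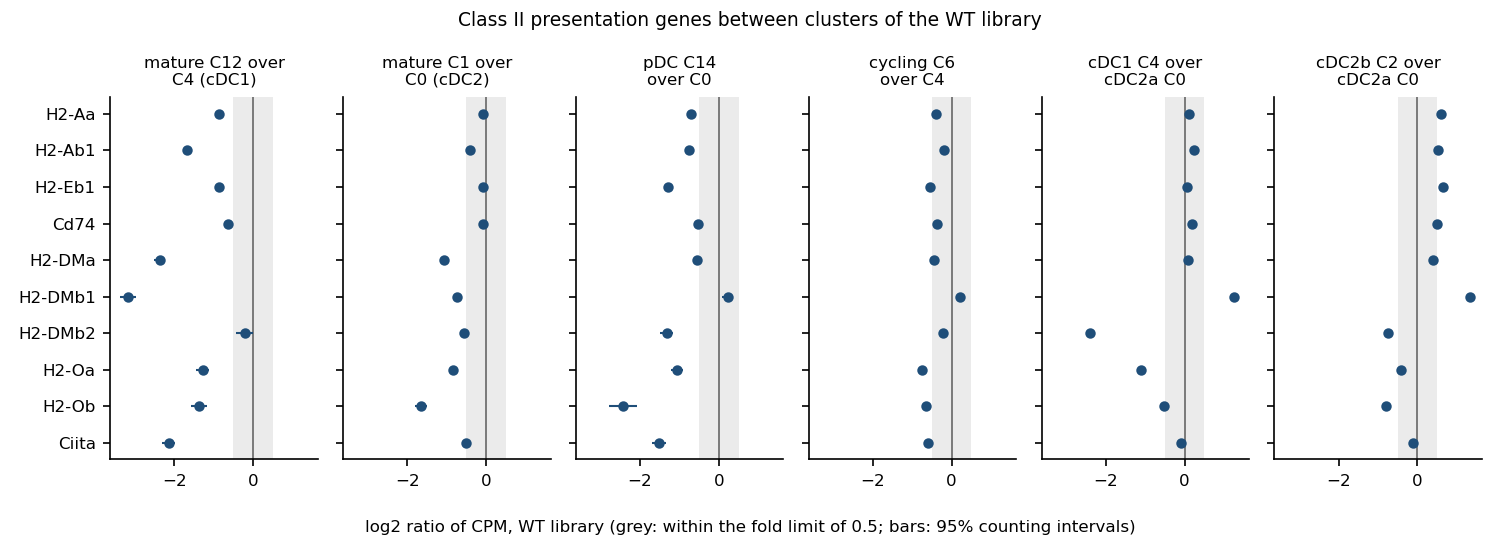
Log2 ratio of the level in CPM between 6 pairs of WT clusters (panels), for each of the 10 members (rows), with 95% counting intervals; the grey band marks ratios smaller than 0.5 in size. The first panel shows H2-DMb1, H2-DMa and Ciita furthest to the left in mature cDC1, at -3.17, -2.37 and -2.14, and the fifth shows the opposite sides of H2-DMb1 and H2-DMb2 in cDC1 over cDC2a.

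Other genes of antigen presentation were read from fixed lists. Of 9 class I presentation genes, 7 were higher in C12 than in C4 and 1, the proteasome subunit gene Psmb9, was lower (815 to 563 CPM, -0.54). Nlrc5, the class I counterpart of Ciita, was 276 CPM in C12 and 32.1 in C4 (3.10), while B2m was higher by 1.44 and H2-K1 by 1.43. Thus the transactivators of the 2 classes stood in opposite order in the same pair of clusters. Of the 7 genes for the RFX, NF-Y and CREB factors, only Creb1 was abundant enough to enter the background, at 111 CPM in C12 and 57.1 in C4 (0.96). Among the rest, at a mean below 50 CPM, Rfxap was 17.9 CPM in C12 and 56.5 in C4 (-1.66), and Nfya 68.4 and 28.3 (1.27).

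Of the 8 listed genes known to act on Ciita transcription or with its product, 6 entered the background, and 1 was higher and 2 were lower. Irf1, an interferon-induced activator, was 667 CPM in C12 and 62.2 in C4 (3.42). Ifngr1, a chain of the interferon gamma receptor, was 61.3 and 565 CPM (-3.20), and Irf8 454 and 1970 (-2.12). Of the listed genes for peptide processing, Lgmn, an endosomal protease, was higher by 2.30 and Sppl2a, which clears the invariant chain remnant, by 1.12, whereas Ctss differed by 0.02. March1, the ligase that marks class II protein for degradation, was 21.2 CPM in C12 and 183 in C4 (-3.11). Cd83, known to oppose that ligase, was 1019 and 238 CPM (2.10). H2-Eb2, a further class II beta chain gene that was not among the members, ran against them all, with 129 CPM in C12 and 14.7 in C4 (3.13).

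The mature cDC2 of C1 also stood below a resting cluster in several members, most of them by less than in cDC1 but H2-Ob and H2-DMb2 by more. In WT, 6 of the 10 members were lower in C1, 721 cells, than in the cDC2a of C0, 3176 cells, by at least 0.5, and none was higher, where 21.0% of 2611 genes were lower and 14.7% higher. The core level hardly differed: 41463 CPM in C1 and 45870.5 in C0, a log2 ratio of -0.15 (-0.15 to -0.14). H2-DMa was 367 CPM in C1 and 769 in C0 (-1.07), H2-Ob 76.6 and 239 (-1.64), and H2-Oa 311 and 555 (-0.83). Ciita was 362 and 516 CPM (-0.51), and its ratio to the core genes differed by -0.37 (-0.44 to -0.30). H2-DMb1 (-0.73) and H2-DMb2 (-0.56) were both lower, so that H2-DMb2 did not stand apart here. H2-Ab1 was again lower than H2-Aa would give, -0.41 against -0.08. Malat1 was 53603 CPM in C1 and 29654 in C0, and its part in these differences was not tested. C1 is an Il4i1+ cluster of its own and was not shown here to be the mature form of C0. C8, cDC2a with raised maturation markers, stood nearer to C0, with the core level at -0.02, Ciita at -0.44, H2-DMa at -0.37 and H2-Ob at -0.32. Without the cells that Scrublet marked, 34 in C1 and 4 in C0, H2-DMa differed by -1.19, H2-Ob by -1.82 and Ciita by -0.56.

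In the Batf3-/- library C1 was larger, 1845 cells, and the same pair of clusters gave the core level at -0.23, H2-Ab1 at -0.53, H2-DMa at -1.10, H2-Ob at -1.94 and Ciita at -0.69. Every member had the same sign in both libraries. In WT, H2-Eb2 was higher in C1 by 1.40, 5 of 8 class I genes in the background were higher, March1 was lower by -2.06 and Cd83 higher by 2.84, each in the direction seen between C12 and C4.

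The means of C12 and C1 hid a wide spread between cells. In C4 and C0 of the WT library no cell had a core share under 1% of its UMIs, which limits such cells to 0.167% and 0.116%, and the middle 90% of C4 cells lay between 3.44% and 6.97%. In C12 the same range ran from 0.199% to 5.77% around a median of 1.42%, and 165 of 394 cells (41.9%, 95% interval 37.0% to 46.9%) were under 1%. In C1 such cells were 124 of 721 (17.2%) in WT and 430 of 1845 (23.3%) in Batf3-/- cells. Scrublet marked none of these low cells, and without marked cells the shares were 44.96% in C12, and 18.05% in WT and 24.6% in Batf3-/- cells of C1. The cut at 1% is a point on a range and not a border between types: 37 C12 cells lay between 0.8% and 1.25%. H2-Aa was 959 CPM in the low C12 cells and 627 CPM in the low C1 cells of WT, above the 300.0 CPM of cells labelled as T cells in C13 and the 215 CPM of the stem-like C19. Batf3-/- C1 cells under 1% had 521 CPM, and C19 of that library had 1317 CPM over its 36 cells, although 33 of the 36 were under 1% and the median core share was 0.105%, against 0.109% in WT.

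**Figure D3:**
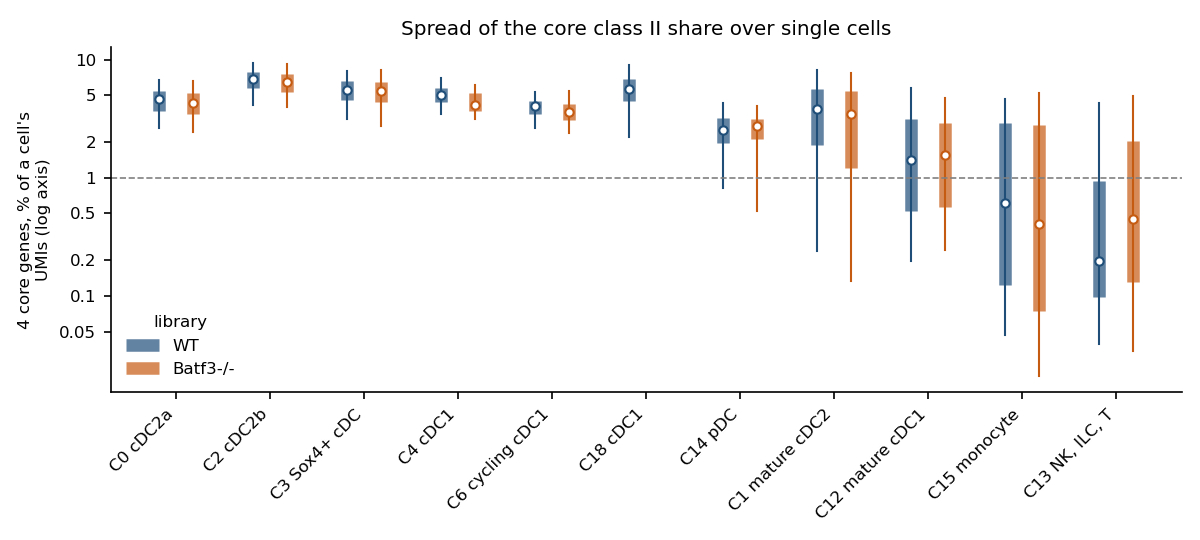
Core genes as a percent of the UMIs of each cell, on a log axis, for 11 clusters in WT (blue) and Batf3-/- cells (orange); thin lines run from the 5% to the 95% quantile, thick bars from the 25% to the 75% quantile, circles are medians and the dashed line marks 1%. C12 and C1 reach far below 1%, with medians of 1.42% and 3.81% in WT, whereas C0, C2, C3 and C4 stay above it over the range shown.

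Cells low and high in core transcripts within C12 were compared for genes outside the core, as a description of the range. In the 165 WT cells under 1%, Ciita was 29.5 CPM (22 UMIs), against 136 CPM in the 229 cells above, and H2-DMa 38.8 against 199 CPM. Relative to all their UMIs, the low cells were not short of Ccr7 (2214 CPM against 1841) or Fscn1 (1321 against 834). Other maturation markers are not given here. The class I gene H2-K1 was 5443 CPM against 3954. The low cells were shallower, with a median of 3885 UMIs against 9202, and held 213681 CPM of Malat1 against 99784. In C1 of WT the order was the same, with Ciita at 30.2 CPM in 124 low cells and 410 CPM in the other 597, Ccr7 at 1586 against 722 CPM, and median UMIs of 4778.5 against 6381. In the Batf3-/- C1, Ciita was 14.5 CPM in 430 low cells and 352 CPM in the other 1415, and Ccr7 1655 against 754. The cells that Scrublet marked were all in the high groups, 27 in C12 and 34 in C1 of WT and 95 in C1 of Batf3-/- cells. Without them the high groups had Ciita at 102, 403 and 346 CPM, and the C12 one had H2-DMa at 156 CPM and a median of 8996.5 UMIs. The part of depth and Malat1 in this spread was not tested.

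Among the H2-DM and H2-DO genes, the clearest contrast between C4 and C0 was in the DM beta chain. Between the resting cDC1 of C4 and the cDC2a of C0 in WT, the core level differed by 0.17 and Ciita by -0.09, and 1 of the 10 members was higher and 3 were lower by at least 0.5, where 11.8% of 2537 genes were higher and 26.8% lower. The 2 genes for the DM beta chain were reversed. H2-DMb1 was 578 CPM in C4 and 241 in C0 (1.26, interval 1.21 to 1.30), and H2-DMb2 82.2 and 437 CPM (-2.41, -2.47 to -2.35). H2-DMa, the shared alpha chain, was 820 and 769 CPM (0.09).

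H2-DMb1 thus made up 87.5% of the DM beta UMIs in C4, 90.4% in C6 and 93.0% in C18, against 35.6% in C0, 33.0% in C1 and 70.1% in C2. C12 stood with the cDC2 in this share, at 47.5%, since its H2-DMb1 was low. In the Batf3-/- library C6, C2 and C0 kept their order, with 87.6%, 70.3% and 36.6%. C4 stood above C6 there, with 89.9% (85.6% to 93.3%), and C12 below C0, with 31.9% (19.1% to 47.1%), on 31 cells each. These genes are near copies of each other, and reads may be divided between them. Of the 111-base windows in the last 500 bases of 3 H2-DMb2 transcripts, 0 of 390 each were shared with H2-DMb1, and of those of 3 H2-DMb1 transcripts 4, 31 and 84 of 390 were shared with H2-DMb2.

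The H2-DO genes were lower in C4 than in C0, although H2-Ob was lower still in the cDC2 of C2 (137 CPM) and C1 (76.6 CPM). H2-Oa was 259 CPM in C4 and 555 in C0 (-1.10), and H2-Ob 167 and 239 (-0.51). Set against the summed H2-DM genes, H2-Oa plus H2-Ob gave 28.8 UMIs per 100 H2-DM UMIs in C4 (28.3 to 29.3) and 54.8 in C0 (53.8 to 55.9), a log2 ratio of -0.93. The cycling cDC1 of C6 had the lowest value of the dendritic cell clusters, 19.4 in both libraries. C2 had 29.3 in WT and 26.5 in Batf3-/- cells, near C4 although it is a cDC2 cluster. C12 was on the other side of C4, with 58.2 (52.1 to 65.0), as H2-DM differed from C4 by more than H2-DO did. H2-DO is known to inhibit H2-DM, but protein levels of either were not measured.

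**Figure D4:**
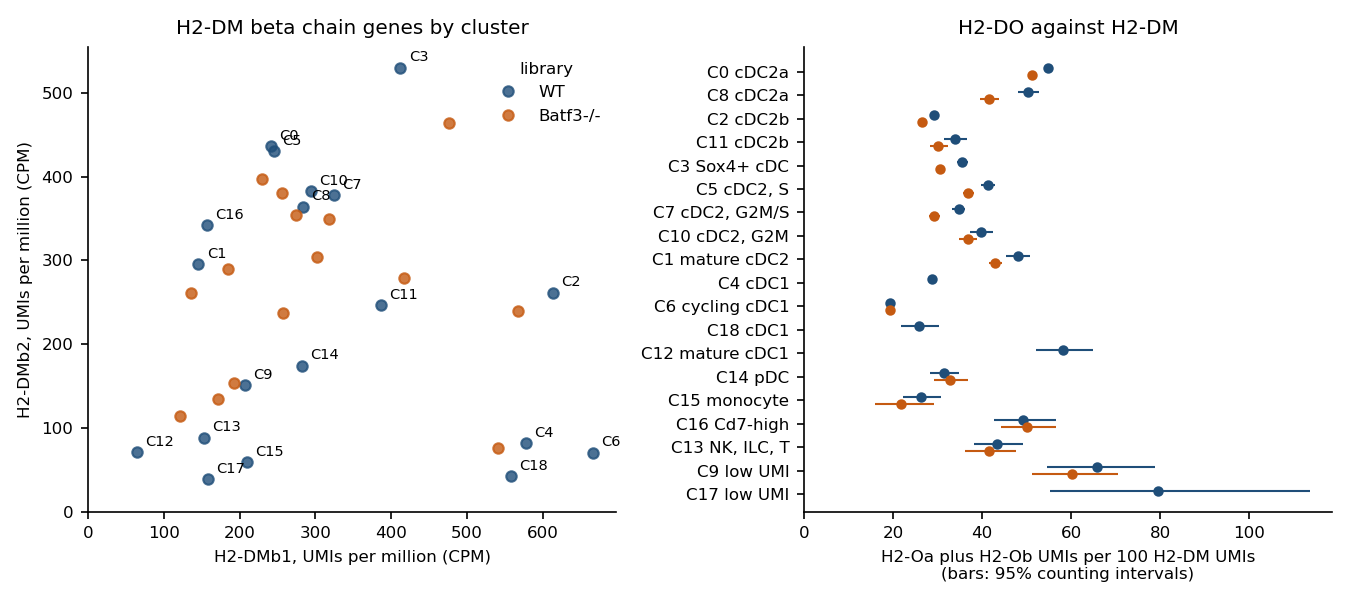
Left, H2-DMb2 against H2-DMb1 in CPM, 1 point for each cluster with 50 cells or more, with names at the WT points. Right, H2-Oa plus H2-Ob UMIs per 100 UMIs of the H2-DM genes by cluster, with 95% counting intervals; blue is WT and orange Batf3-/-. C4, C6 and C18 lie along the bottom at the right of the left panel, with H2-DMb2 between 42.3 and 82.2, and the right panel runs from 19.4 in C6 to 79.5 in C17.

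C2, the cDC2b, had the most core transcript without more Ciita. Against C0 in WT, 5 members were higher by at least 0.5, where 6.72% of 2561 genes were: H2-Aa (0.60), H2-Ab1 (0.52), H2-Eb1 (0.64), Cd74 (0.50) and H2-DMb1 (1.34). H2-DMb2 (-0.74) and H2-Ob (-0.80) were lower, where 14.1% of genes were. Ciita was 476 CPM in C2 and 516 in C0 (-0.12), and Ciita per 1000 core UMIs was lower in C2 by -0.67 (-0.73 to -0.62) in WT and by -0.71 in Batf3-/- cells.

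The pDC of C14, which make interferon and present antigen poorly at rest, had less of nearly each member than C0. In WT, 9 members were lower by at least 0.5 and none was higher, where 19.4% of 2771 genes were lower and 20.7% higher. H2-Ob was lowest, with 69 UMIs in all, 44.2 CPM against 239 in C0 (-2.43, interval -2.80 to -2.09). Ciita was 181 and 516 CPM (-1.51) and H2-Eb1 3846 and 9418 (-1.29), whereas H2-DMb1 was 283 and 241 (0.23). Ciita per 1000 core UMIs differed by -0.77 (-0.95 to -0.60) in WT and by -0.87 in Batf3-/- cells. In WT, Scrublet marked 16.2% of C14 cells, the second highest share of the WT clusters after C13. Without marked cells, H2-Ob differed between C14 and C0 by -3.23 (25.5 CPM in C14), Ciita by -1.81 and H2-Eb1 by -1.58.

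The chains of 1 dimer were not read in a constant ratio. H2-Ab1 per 100 H2-Aa UMIs in WT was 146 in C6, 127 in C4, 114 in C0, 91.3 in C1 and 72.4 in C12. C8, the cDC2a cluster high in Cd83, had 108, and C11 104 against 108 in C2, smaller gaps than those of C1 and C12. The low-UMI clusters C9 (169) and C17 (262) were highest. H2-Eb1 per 100 H2-Aa UMIs was between 98.4 and 128 in WT clusters other than C16 (89.2), C17 (152) and the pDC of C14, where it was 74.7 (72.2 to 77.2) in WT and 69.1 in Batf3-/- cells. Cd74 per 100 H2-Aa UMIs was 282 in C12 and 223 in both C0 and C1.

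Cycling cDC1 had less of most members than resting ones. From C4 to C6 in WT, H2-Oa (-0.75), H2-Ob (-0.65), Ciita (-0.59) and H2-Eb1 (-0.56) were lower by at least 0.5 and none was higher. In this pair 8.16% of 2500 genes were lower and 21.4% higher. Malat1 was 19038 CPM in C6 and 40252 in C4, and the median cell had 19599 and 15398.5 UMIs. The part of these measures was not tested. H2-DMb1 was 667 CPM in C6 and 578 in C4 (0.21). C18, with 76 WT cells, had a core level as high as C4 (0.14) but Ciita at 103 CPM on 51 UMIs, a difference of -2.24 (-2.66 to -1.84). H2-DMb2 (-0.96, on 21 UMIs) and H2-Ob (-0.50) were lower in C18 too, whereas H2-DMa (0.12), H2-DMb1 (-0.05) and H2-Oa (0.04) lay close to C4. No share of genes past 0.5 was counted for this pair. The cDC1 marker Clec9a, at -0.47, stood at percentile 34.6 of its background genes, so differences like that of H2-Ob were common among all genes.

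Between the libraries, C6 was the cDC1 cluster well filled in both, with 797 in WT and 727 in Batf3-/- cells. The cells differ in more than genotype: the 5 cDC1 markers summed to 1783 CPM in WT and 272 in Batf3-/- C6, the 5 cDC2 markers to 33.3 and 199, and 1.63% of WT but 26.0% of Batf3-/- cells carried the phase call G1. The cycling genes themselves differed little, with Mki67 at 245 CPM in WT and 242 in Batf3-/- C6 (-0.02), Top2a at 208 and 222 (0.09) and Birc5 at 191 and 180 (-0.09). None of the 10 members differed by 0.5 or more in C6, where 5.49% of 2585 genes were lower and 5.84% higher. The core level of WT cells, 40061 CPM, stood above the 36079 CPM of Batf3-/- cells (-0.15). Ciita was 322 CPM in the WT and 236 CPM in the Batf3-/- library (-0.45, interval -0.51 to -0.38), which was the largest difference of the 10. H2-Ob (-0.36), H2-DMb1 (-0.30) and H2-Ab1 (-0.29) were lower too, while H2-DMa (0.01) and H2-Oa (0.01) lay at 0. Ciita per 1000 core UMIs was 8.03 in WT and 6.53 in Batf3-/- C6 (-0.30, -0.36 to -0.23).

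Lower Ciita in the Batf3-/- library was not limited to cDC1 clusters. Of 15 clusters with at least 50 cells in both libraries, Ciita was lower in 14, and its median log2 difference was -0.20. The exception was C13, with 0.04, or 0.92 without the cells that Scrublet marked. Of 2799 genes, 2.86% were lower in at least 14 of the 15. Ciita per 1000 core UMIs was lower in 15 of 15, by -0.09 in C0 to -0.57 in C16, and its interval lay below 0 in 11. C4 and C12, with 31 Batf3-/- cells each, are not among the 15. C16 differed in markers too: the 5 pDC markers summed to 642 CPM in WT, with Siglech at 0, and to 862 CPM in Batf3-/- cells, and the 5 cDC1 markers to 168 and 72.9. The core level itself was lower in 6 clusters and higher in 9, with a median of 0.01. H2-Ob was lower in 12 of 15, with a median of -0.33, down to -2.62 in C15, where 5 UMIs were read in Batf3-/- and 81 in WT cells. The H2-Ab1 level was lower in 12 of 15 too, with a median of -0.04. No share over all genes was counted for 12 clusters or for the ratios. C15 also differed in markers: the 5 cDC1 markers summed to 642 CPM in WT and 82.6 in Batf3-/- cells, the 5 monocyte markers to 12756 and 19177, and the 4 stem cell markers to 41.0 and 179. Scrublet marked 8.28% and 1.92% of its cells, and without them H2-Ob differed by -2.34 and Ciita by -0.34 in place of -0.61. H2-Ab1 per 100 H2-Aa UMIs was lower in 15 of 15 as well, but by a median of only -0.08, and in 14 of 15 without cells with B cell transcripts or among cells of 3000 UMIs or more. Clusters of the same 2 libraries are not replicates, so these counts describe 1 pair of libraries.

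Other transcripts moved with Ciita between the libraries. Itgax was lower in 14 of the 15 clusters, with a median of -0.38, and Malat1 in 12, with a median of -0.11 and its lowest value in C6, 19038 CPM in WT and 10634 in Batf3-/- cells (-0.84). Set against Itgax in place of the core genes, the direction turned: Ciita per Itgax UMI was lower in 4 of the 15 clusters and higher in 11, with a median of 0.13, and without the cells that Scrublet marked it was lower in 2 and higher in 13. The cDC1 marker Naaa was lower in each of the 15 clusters, among them C0 (-0.84), C1 (-1.69) and C14 (-2.48). Other cDC1 markers went both ways: Clec9a was lower in C0 (-1.54) and C1 (-1.89) but not in C14 (0.14), and Cadm1 was higher in C8 (0.90). The part of Malat1 or of cDC1 transcripts in the Ciita difference was not tested. Without the cells that Scrublet marked, and likewise without cells with transcripts of 2 or more B cell genes, Ciita per 1000 core UMIs stayed lower in 15 of 15, with medians of -0.23 and -0.23. Among cells of 3000 UMIs or more it was also lower in 15 of 15, with a median of -0.27.

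**Figure D5:**
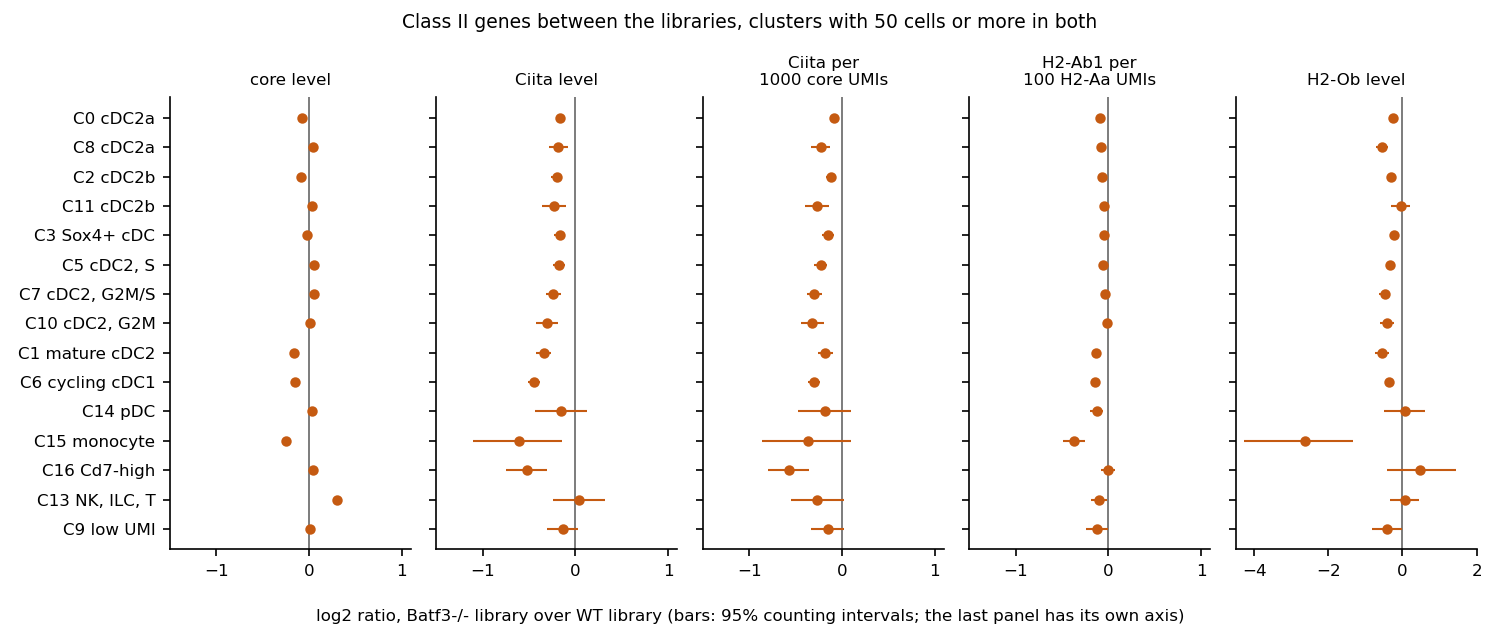
Log2 ratio of the Batf3-/- over the WT library in the 15 clusters with 50 cells or more in both, for the core level, the Ciita level, Ciita per 1000 core UMIs, H2-Ab1 per 100 H2-Aa UMIs and the H2-Ob level (panels, the last on its own axis), with 95% counting intervals. Core levels lie on both sides of 0, from -0.25 in C15 to 0.30 in C13 (-0.11 and 1.33 without the cells that Scrublet marked). The points of both ratios lie below 0 throughout. Their intervals lie below 0 in 11 clusters for Ciita per 1000 core UMIs and in 13 for H2-Ab1 per 100 H2-Aa UMIs.

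The share of cells with a Ciita UMI was also highest in C0 and C4 and lowest in C12 among 5 clusters, but it put C6 above C1 in both libraries, where the Ciita level put C1 above C6. Cells were thinned to 1000 UMIs each (28 WT and 42 Batf3-/- cells were too shallow), and the share was 38.8% in C0, 35.6% in C4, 27.4% in C6, 24.4% in C1 and 7.18% (4.82% to 10.2%) in C12 of WT, and 37.4% in C0, 21.5% in C6 and 20.9% in C1 of Batf3-/- cells. C13, in which 45 of 241 WT cells carried a dendritic cell label and 41 were marked by Scrublet, had 7.88%. Without thinning the shares were 93.9% in C0, 97.2% in C4, 64.6% in C1 and 27.4% in C12, at median depths of 6648, 15398.5, 6176 and 6887.5 UMIs.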

How the data were processed

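Per the submitters' processing notes, reads were handled with bcl2fastq 2.2.0, Cell Ranger and Seurat 3.0.5. The raw UMI counts per gene and cell were used as deposited by the authors, with the deposited clusters, cell labels and phases. The deposited mitochondrial and ribosomal values are a fraction of each cell's UMIs. Recomputed totals and fractions matched them in 24343 of 24343 cells (tolerance 1e-09 for fractions). Normalized and antibody tables were not used here.

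Counts were summed per cluster and library with Python 3.11.15, numpy 2.4.6, scipy 1.17.1 and pandas 2.3.3, and drawn with matplotlib 3.10.9. Intervals are at the 95% level. Those of log2 ratios were run on counts simulated with counting error alone, as these intervals assume. The simulation held no spread between cells or libraries, so it does not show their coverage in these data. With 1 library per genotype no test was made. A difference of at least 0.5 (log2) was counted among genes with a mean of 50 CPM or more and 20 UMIs or more. Doublets were marked with Scrublet (scanpy 1.11.5, expected rate 0.1). Named genes were the members in each comparison, the fixed lists, and the 5 genes most like Ciita or the core level. The members and lists were chosen with earlier results of these data known. Alternatives changed the total, the cells kept or the targets.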

Additional observations from a re-analysis of the deposited data

Results flagged for a closer look

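The log2 ratio of the core level between the libraries differed in sign between C15 and C13, the 2 clusters at the ends of its range. With 6 of 15 clusters lower and 9 higher, its ends must lie on opposite sides of 0. In the monocytes of C15 the log2 ratio of Batf3-/- over WT was -0.25, and in C13, a mixture of lymphoid and dendritic cells, it was 0.30. The difference between these clusters was not tested, since each value rests on 1 library per genotype. In WT, Scrublet marked 41 of 241 C13 cells, and without marked cells the C13 value was 1.33. Scrublet marked 12 of 145 C15 cells in WT and 1 of 52 in Batf3-/- cells, and without them the C15 value was -0.11. The 5 cDC1 markers summed to 642 CPM in WT and 82.6 in Batf3-/- cells of C15, and to 231 and 25.2 CPM in C13.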

How the results depend on the processing

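Of 60 alternatives over 7 results, 43 kept the value within its counting interval, 17 moved it outside and 0 reversed it. A changed total cannot move a ratio of members, so for the ratio results those alternatives are among the 43 by construction. Each alternative for the core level of C12 over C4 lay outside its interval. The core level of C12 over C4, -0.90 as reported, was -1.28 with each cell weighted equally, -1.05 with the total taken without mitochondrial and ribosomal protein genes, -0.94 without the 10 members, -0.93 without cells with B cell transcripts, -0.98 without doublets, -0.94 in phase G1 alone, -0.85 in cells of 3000 UMIs or more and -0.76 without Malat1, the last added after seeing the data. Ciita per 1000 core UMIs of C12 over C4 was -1.58 without doublets, against -1.24. H2-DO per H2-DM of C4 over C0, -0.93 as reported, was -0.97 without doublets and -0.99 with H2-DMa alone. The core level of C6 between libraries, -0.15 as reported, was -0.11 with each cell weighted equally, -0.09 without mitochondrial and ribosomal protein genes, -0.16 without the members, -0.14 without doublets and -0.16 without Malat1 (added likewise). Ciita per 1000 core UMIs in C6 was -0.39 in G1 alone, on 13 WT cells, against -0.30. The cause of these shifts was not tested. No paired analysis was possible because each genotype has 1 library. Precision is limited by the single library per genotype and, in C12, C14 and C18, by 325, 283 and 51 Ciita UMIs.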

Other observations

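Within C13 of the WT library, class II transcripts differed between the cell labels, which were themselves assigned from transcripts. Scrublet marked 41 of its 241 cells, and without them the core UMIs of C13 were 7728 in place of 24519. The values by label include the marked cells. The 45 cells labelled as dendritic cells had a core share of 3.37% and Ciita at 360 CPM, the 45 innate lymphoid cells a core share of 0.666%, the 51 NK cells 0.348% and the 56 T cells 0.166%.

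In C2 of the WT library, 552 cells labelled as dendritic cells had a core share of 6.59% and 384 labelled as monocytes 6.98%, while Ciita per 1000 core UMIs was 7.62 and 6.24. In C11 the ratio was 11.7 in 119 cells labelled as dendritic cells, 6.78 in 49 labelled as monocytes and 4.70 in 20 labelled as macrophages.

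By cell cycle phase in C6, Ciita was 298 CPM in 189 G1 cells, 227 in S and 209 in G2M of the Batf3-/- library, and 433 CPM in 13 G1 cells, 321 in S and 320 in G2M of WT.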
